A study of Mus musculus with 4 samples.

Results

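The aminoacyl-tRNA synthetases are the enzymes that join each amino acid to its transfer RNA, and this account follows their genes in mouse morulae after knockdown of Nr1h2, which encodes the oxysterol receptor LXRβ. The members are 36 gene symbols taken from a list, and all 36 were among the 13658 genes of the authors' deposited table. They comprise 20 cytosolic enzymes and 16 mitochondrial enzymes, the latter recognised by a symbol that ends in 2. The samples were 2 of wild-type morulae injected at the 1-cell stage with non-targeting siRNA (siNT) and 2 injected with an siRNA pool against Nr1h2 (siNr1h2), each with 4 to 5 pL at 100 µM, and grown in M16 medium. Neither the number of embryos per sample nor separate cultures for replicates are stated in the labels, so p-values measure only how these samples vary, which may be technical variation. Values per sample are not part of the table, and each gene is given by the authors' mean normalized count over the 4 samples and their log2 fold change, siNr1h2 over siNT, with its standard error (SE). In bulk samples, fewer cells of a type and less RNA per cell cannot be told apart.

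Synthetases fall into class I and class II, which differ in the fold of the catalytic domain. In mammals, 8 of the cytosolic synthetase proteins and 3 scaffold proteins are bound in a multi-synthetase complex, and Eprs fuses the glutamyl and prolyl enzymes in a single chain. Mitochondria translate their own messages and import a separate set of synthetases made from nuclear genes. Gars and Kars each encode the glycyl or lysyl enzyme of both compartments, and mitochondrial glutaminyl-tRNA is made by an indirect route that starts with Ears2. Many cytosolic synthetase genes are known targets of ATF4, the transcription factor of the amino acid response.

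Knockdown, library content and tissue were checked first. Nr1h2 was 5.03 times lower in siNr1h2 morulae in the authors' deposited table. The 8 morula and blastocyst markers Pou5f1, Nanog, Sox2, Cdx2, Gata3, Tead4, Cdh1 and Krt8 had mean normalized counts of 90.8 to 2181 there. Of these, Krt8, a keratin of the outer cells, was lower, at -0.50 ± 0.14 (SE) in the authors' deposited table (DESeq2, adjusted p = 0.0211). The other 7 did not pass. Pou5f1 stood at 0.43 ± 0.15 there. Sox2 (0.23 ± 0.31), Nanog (0.06 ± 0.14), Tead4 (0.06 ± 0.16), Cdh1 (0.06 ± 0.13), Cdx2 (0.01 ± 0.23) and Gata3 (-0.11 ± 0.17) were each smaller than their standard errors. The part of any shift in cell types in the results that follow was not tested. Of 8 cumulus and granulosa markers, the authors' deposited table listed Cyp19a1 with a mean of 2.89 and Foxl2 with 1.94. The other 6 and 5 sperm markers were not analysed here.

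A single member changed past the threshold. Lars2, the mitochondrial leucyl-tRNA synthetase, was 1.63 times higher after Nr1h2 knockdown in the authors' deposited table (95% interval 1.29 to 2.06, DESeq2 Wald test, adjusted p = 0.00666). Its mean normalized count was 1020, the highest of the mitochondrial members, and its log2 fold change was 0.70 ± 0.17 (SE) in the authors' deposited table. No member was lower. The 1 call among 36 members is a share of 2.78%, beside 1.98% called in either direction over the 12069 genes with an adjusted p, 0.456% higher and 1.52% lower. A single call at a share near that of all genes is a result about Lars2 and not about the family. Over all genes the split was 55 higher and 184 lower, and it became 82 and 142 when fold changes were centred on genes with a mean of at least 500, and 36 and 442 when centred on ribosomal protein genes. The last centring shifted the median of all genes by 0.11 on the log2 scale.

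The upstream sequence of Lars2 is shown because it is the called member. The 250 bases before its start lie on chromosome 9 of build GRCm38.p6, plus strand, at chr9:123366677-123366926 (RefSeq), and hold 59.2% G and C. Capitals mark 2 copies of the GC box core GGGCGG, a site of Sp1 family factors, searched on both strands.
Lars2: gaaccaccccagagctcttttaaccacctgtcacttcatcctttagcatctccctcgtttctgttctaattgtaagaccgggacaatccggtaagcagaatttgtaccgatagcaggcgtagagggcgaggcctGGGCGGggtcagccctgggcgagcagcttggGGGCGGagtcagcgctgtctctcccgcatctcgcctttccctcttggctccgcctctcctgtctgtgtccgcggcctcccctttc

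Windows of this kind were matched for 27 of the 36 members. A GGGCGG core was present in 10 of 14 mitochondrial and 7 of 13 cytosolic members with a window, and in 35.4% of all 27025 genes with one. The DR4 element, AGGTCA repeated after a gap of 4 bases, which LXR and RXR dimers bind, was in no member's window and in 0.0148% of all genes, which says only that these letters are not in these 250 bases. TGATGNAA, the core of the composite element that ATF4 and C/EBP factors share, was in 3 of 13 cytosolic and 0 of 14 mitochondrial members, and in 3.91% of all genes. The 3 are Aars, Gars and Tars. The matches in Gars and Tars are shown as examples of how the element reads. They were chosen after the search and do not represent how genes with the element moved. Each lies on the reverse strand of the gene, so the capitals read as its complement, and the places are chr6:55037961-55037988 (plus strand, Gars) and chr15:11399659-11399683 (minus strand, Tars), both in GRCm38.p6.
Gars: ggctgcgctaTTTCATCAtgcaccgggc
Tars: aggagtcccgTTGCATCAgctggtt

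None of the 3 members with the element was called by the DESeq2 Wald test, and nothing is read from their fold changes.

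**Figure D1:**
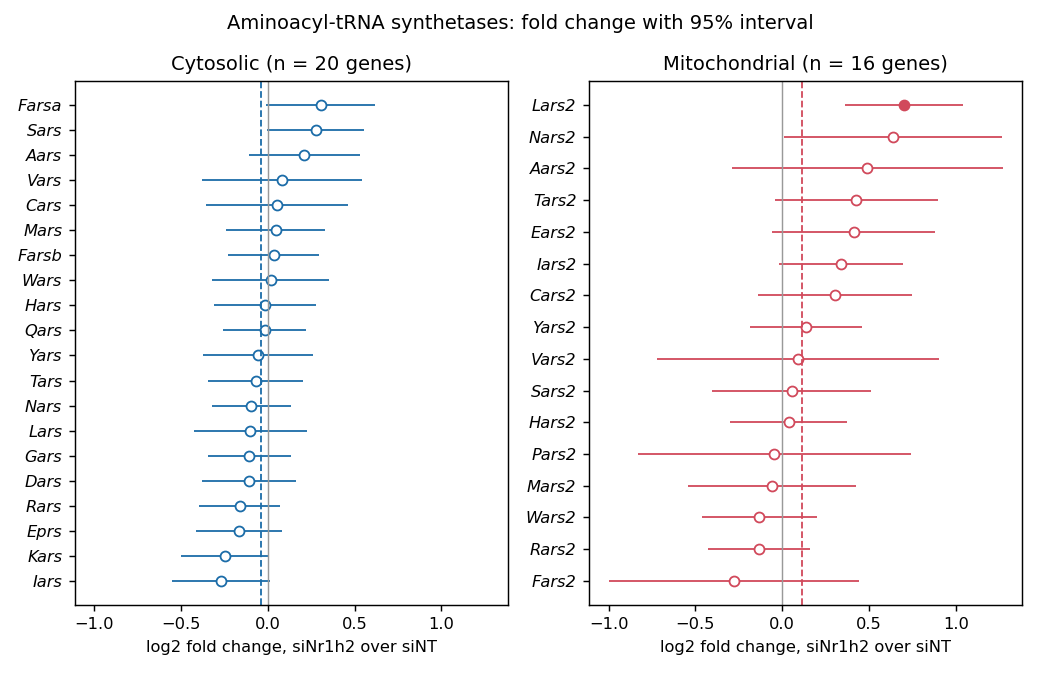
Log2 fold change, siNr1h2 over siNT, for the 20 cytosolic and 16 mitochondrial synthetase genes, with 95% intervals from the authors' standard errors; filled points passed an adjusted p of 0.05, and dashed lines mark the group medians of -0.04 and 0.11. Lars2 is the only filled point, and the intervals of all members but Lars2 and Nars2 include 0.

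None of the 20 cytosolic synthetases changed past the threshold. Beside 1.98% of all genes called in either direction, the DESeq2 Wald test called 0 of them. While 1602 of the 12069 genes with an adjusted p had an unadjusted p under 0.05, 0 of the cytosolic synthetases did in the authors' deposited table. Their log2 fold changes ran from -0.27 to 0.30, and 8 lay above 0 and 12 below, beside 50.6% above 0 over all genes with an adjusted p. Their median was -0.04, beside 0.00 over all genes, and it moved to 0.00 when fold changes were centred on genes with a mean of at least 500, so that its sign depends on the scaling.

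These genes were abundant. Their mean normalized counts ran from 217 to 3752 with a median of 1026, and their median SE was 0.14 on the log2 scale. A gene of that precision needed a change of 1.39 times to be called, so smaller changes were not detectable with these 4 samples. Genes of this abundance lean downward as a whole in this comparison: the 3755 genes with means of at least 500 had a median log2 fold change of -0.04, with 42.1% above 0.

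The cytosolic enzymes outside the complex lay about evenly around 0, with 7 of 12 above it and a median log2 fold change of 0.03. Farsa and Farsb encode the subunits of the phenylalanyl enzyme, which works as a tetramer of both. Their log2 fold changes were 0.30 ± 0.16 (SE) for Farsa and 0.03 ± 0.13 for Farsb in the authors' deposited table. Sars, the seryl enzyme, which also puts serine on selenocysteine tRNA, stood at 0.27 ± 0.14 in the authors' deposited table (DESeq2, adjusted p = 0.394). Aars, the alanyl enzyme, stood at 0.21 ± 0.16 in the authors' deposited table. Farsa, Sars and Aars were the 3 highest of the cytosolic genes, and none passed.

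Vars, Cars and Wars, the valyl, cysteinyl and tryptophanyl enzymes, lay at 0.08, 0.05 and 0.02 on the log2 scale in the authors' deposited table. Hars (histidyl), Yars (tyrosyl) and Nars (asparaginyl) stood at -0.02, -0.06 and -0.09 in the authors' deposited table. Tars (threonyl) and Gars (glycyl) stood at -0.07 ± 0.14 (SE) and -0.11 ± 0.12 there. All 8 values are smaller than their own standard errors.

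Members of the multi-synthetase complex lay mostly below 0. Of its 8 synthetases 7 had a log2 fold change below 0, and their median was -0.14. All genes with means of at least 500 had a median of -0.04 with 42.1% above 0. Complex members had a median count of 1729 and a median G and C content of 47.7%. For cytosolic genes outside the complex these were 717 and 52.9%. Fold change moved with count and with G and C content over all genes, and their part here was not tested. Iars, the isoleucyl enzyme, and Kars, the lysyl enzyme, were lowest, at -0.27 ± 0.14 (SE) and -0.25 ± 0.13 in the authors' deposited table (DESeq2, adjusted p = 0.414 and 0.391). Eprs (-0.17 ± 0.13), Rars (-0.16 ± 0.12), Dars (-0.11 ± 0.14), Lars (-0.10 ± 0.17) and Qars (-0.02 ± 0.12) followed in the authors' deposited table, with Mars at 0.04 ± 0.14. Each of these values is under 2 standard errors from 0.

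The 3 scaffold genes of the complex were also below 0. Aimp2 stood at -0.27 ± 0.14 (SE), Aimp1 at -0.11 ± 0.12 and Eef1e1 at -0.10 ± 0.11 in the authors' deposited table, and none passed (0 of 3 with an unadjusted p under 0.05). Together 10 of the 11 complex genes lay below 0, with a median log2 fold change of -0.11. No gene of the complex was called by the DESeq2 Wald test, beside 1.98% of all genes called in either direction. The direction of the group was not tested.

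**Figure D2:**
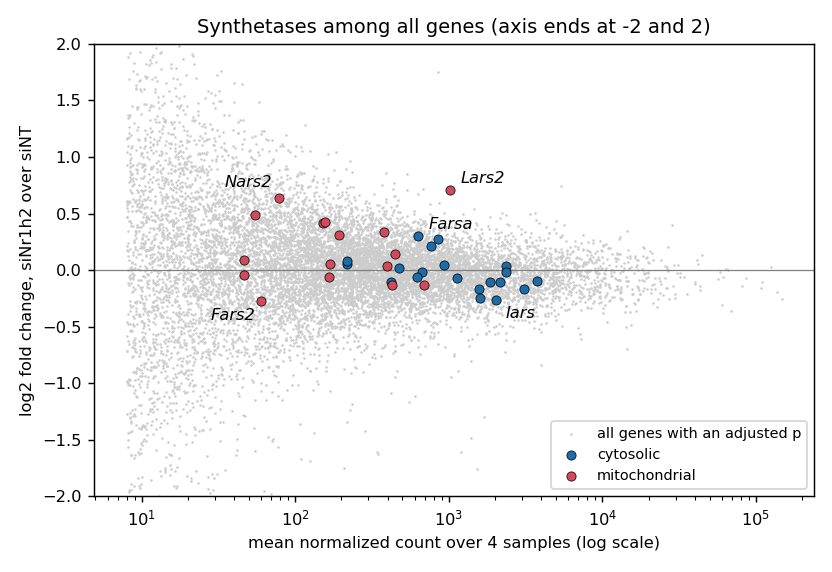
Mean normalized count over 4 samples (log scale) against log2 fold change for the 12069 genes with an adjusted p (grey), with cytosolic and mitochondrial synthetases in colour; 92 genes lie outside the vertical axis, which ends at -2 and 2. Lars2 stands at a mean of 1020 above the other members, and the mitochondrial genes sit mostly at lower counts than the cytosolic ones.

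The mitochondrial synthetases leaned upward, with 11 of 16 above 0 and a median log2 fold change of 0.11. Without Lars2 the median was 0.09 with 10 of 15 above 0. The 5278 genes with means of 50 to 500, where most of these genes lie, had a median of 0.04 with 54.7% above 0. The median of the mitochondrial genes stayed above 0 under both other scalings, at 0.15 centred on genes with a mean of at least 500 and 0.01 centred on ribosomal protein genes. The G and C content of transcripts moved with fold change over all genes (Spearman's rho of 0.24 across 11549 genes, which are not independent), and its median was 54.4% for mitochondrial, 50.7% for cytosolic and 50.2% for all genes. Once a trend with G and C content and length was removed, the mitochondrial median was 0.09 and the cytosolic median -0.03.

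Counts were lower here and errors larger. Mean normalized counts ran from 46.4 for Vars2 to 1020 for Lars2 with a median of 167, and the median SE was 0.24. A gene of that precision needed a change of 1.71 times to be called.

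After Lars2, the gene with the smallest p was Nars2, the asparaginyl enzyme. Its level in the authors' deposited table was 1.56 times higher (95% interval 1.01 to 2.40), but did not pass (DESeq2, adjusted p = 0.366) at a mean normalized count of 78.6. No other mitochondrial gene apart from Lars2 had an unadjusted p under 0.05. Iars2, the isoleucyl enzyme, stood at 0.34 ± 0.18 (SE), Tars2, the threonyl enzyme, at 0.43 ± 0.24, and Ears2, the glutamyl enzyme, at 0.41 ± 0.24 in the authors' deposited table. None of these 3 passed (DESeq2, adjusted p = 0.418, 0.440 and 0.456).

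Aars2 (alanyl, 0.49 ± 0.40) and Cars2 (cysteinyl, 0.31 ± 0.23) also had log2 fold changes above 0 in the authors' deposited table, with intervals that cross 0. Yars2 (tyrosyl), Vars2 (valyl), Sars2 (seryl) and Hars2 (histidyl) lay between 0.04 and 0.14 in the authors' deposited table. Pars2 (prolyl, -0.05 ± 0.40), Mars2 (methionyl, -0.06 ± 0.25), Wars2 (tryptophanyl, -0.13 ± 0.17), Rars2 (arginyl, -0.13 ± 0.15) and Fars2 (phenylalanyl, -0.28 ± 0.37) lay below 0 in the authors' deposited table. The mitochondrial genes therefore spread from -0.28 to 0.70, a wider range than the cytosolic ones, at larger errors.

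The genes were also split by catalytic class. Median log2 fold changes were -0.02 for 9 cytosolic class I and -0.04 for 10 class II enzymes, with Eprs in neither group. They were 0.14 for 9 mitochondrial class I and 0.05 for 7 class II enzymes. These are descriptions without a test.

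Enzymes of the same amino acid can be set side by side, and that difference does not depend on how samples were scaled. The genes of a pair can still differ in count and in G and C content. Both moved with fold change over all genes, and the part of count in these differences was not tested. There were 17 pairs over 16 amino acids, since Farsa and Farsb share Fars2 and Eprs is set against both Ears2 and Pars2. The mitochondrial gene had the higher log2 fold change in 12 pairs and the lower in 5, with a median difference of 0.12. Taken as cytosolic minus mitochondrial, this median went from -0.12 to -0.08 once a trend with G and C content and length was removed. Taking errors as independent between genes, the 95% interval of the difference left out 0 in 4 pairs, all with the mitochondrial gene higher. The leucine pair differed most, by 0.81 ± 0.24 (SE; 95% interval 0.33 to 1.28). The asparagine pair followed at 0.73 ± 0.34 (0.06 to 1.40), the isoleucine pair at 0.61 ± 0.23 (0.15 to 1.06) and the glutamate pair at 0.58 ± 0.27 (0.05 to 1.11). With intervals widened to hold jointly for all 17 pairs (Bonferroni), the leucine pair alone left out 0 (0.09 to 1.52). That pair sets Lars2 at 0.70, the called member, against Lars at -0.10, so it is not separate from the call of Lars2.

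**Figure D3:**
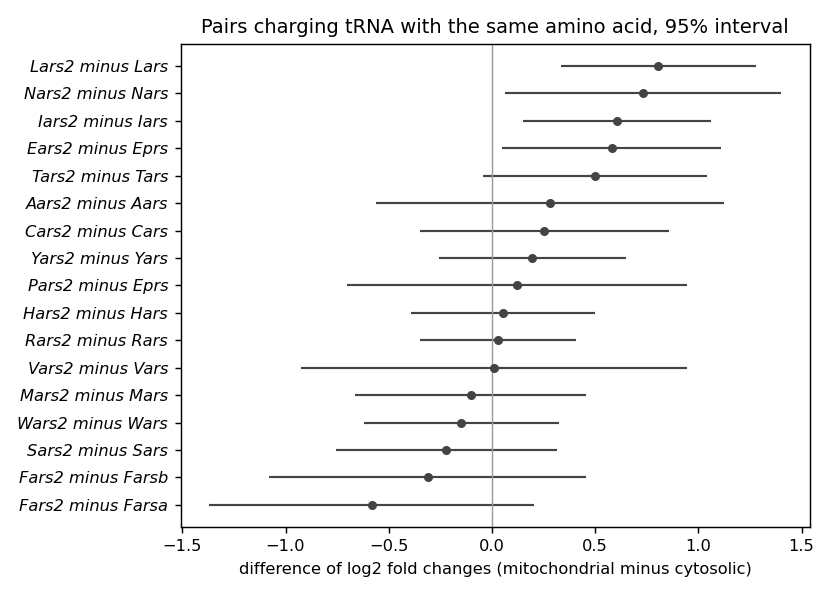
Difference of the log2 fold changes, mitochondrial minus cytosolic gene, for 17 pairs that charge tRNA with the same amino acid, with 95% intervals for single pairs. The pairs of leucine, asparagine, isoleucine and glutamate have intervals above 0, and the other 13 include 0.

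For the remaining 13 pairs the data set limits rather than show likeness. The arginine pair had the narrowest interval of all, with a difference of 0.03 (95% interval -0.35 to 0.41), and the histidine pair differed by 0.05 (-0.39 to 0.50). The widest intervals belonged to valine (-0.93 to 0.94) and alanine (-0.56 to 1.12), where Vars2 and Aars2 had mean normalized counts of 46.4 and 54.7 in the authors' deposited table. In phenylalanine the order was the other way, with Fars2 below Farsa by 0.58 and an interval that includes 0 (-1.37 to 0.21 for Fars2 minus Farsa).

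Level per length also divided the compartments. The mean normalized count per kilobase of the principal transcript had a median of 329 in cytosolic and 71.9 in mitochondrial genes, beside 68.9 over all genes with an adjusted p. The cytosolic gene was the more abundant per kilobase in 14 of 17 pairs, with a median ratio of 4.31 and a highest ratio of 65.7 for Nars over Nars2. The leucine pair had the lowest ratio, 0.406, with 106 counts per kilobase for Lars and 262 for Lars2, and in the cysteine and tyrosine pairs the mitochondrial gene was also higher. Rars and Nars had the highest levels of all members, at 1466 and 1367 counts per kilobase, and Vars2 the lowest at 10.5. These levels rest on 1 annotated transcript a gene. Long annotated ends, as in Mars2 and Aars, lower the value.

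Part of the Lars2 transcript is not unique to it. In the principal Lars2 transcript of 3894 bases, 26 and 22 of 3864 stretches of 31 bases also occur in transcripts of AA474408 and Gm15564. They lie between bases 3172 and 3329, in the 3′ untranslated part that starts at base 2909. Mouse Lars2 is known to hold a short stretch there that resembles ribosomal RNA. Rn45s, the row of the ribosomal RNA precursor, had a log2 fold change of 0.74 ± 0.30 (SE) at a mean normalized count of 5360 in the authors' deposited table (DESeq2, adjusted p = 0.226). The fold changes of Rn45s and Lars2 are close (0.74 and 0.70), and the part of such reads in the Lars2 result was not tested.

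Other members also share sequence or overlap with neighbours, and the library kit does not mark strand. Exons of 12 members overlap exons of another gene in the GENCODE annotation, over more than 10% of the principal transcript in 4 of them. These are Iars2 with Rab3gap2 (37.2%), Aars with Exosc6 (23.1%), Cars2 with Naxd (22.2%) and Farsb with Sgpp2 (12.2%). In the authors' deposited table those neighbours stood at -0.13, -0.09, 0.52 and 2.15 on the log2 scale, and their part in the members' values was not tested. Hars and Hars2, which are transcribed from opposite strands, overlap over 195 bases. Iars shares 767 of its 4396 stretches of 31 bases with the gene model Gm4849. Values of these genes are uncertain to that extent, since no source used here states how shared reads were counted.

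Partner genes were mostly not called. Their counts stand beside 1.98% of all genes called in either direction. Of the 12069 genes with an adjusted p, 1602 had an unadjusted p under 0.05. Of 4 genes of the mitochondrial amidotransferase, which completes glutaminyl-tRNA, and of initiator tRNA formylation, all lay above 0 and none passed (median log2 fold change 0.24, 0 with an unadjusted p under 0.05). Mtfmt, the formyltransferase, stood at 0.34 ± 0.23 (SE), and the amidotransferase subunits Gatb and Gatc at 0.31 ± 0.27 and 0.17 ± 0.20 in the authors' deposited table. None of 9 genes of elongation factors and their relatives passed, with 2 at an unadjusted p under 0.05. They were Gfm2, a mitochondrial ribosome recycling factor, at 0.64 ± 0.22 and Eef2, the cytosolic translocase, at 0.26 ± 0.12 in the authors' deposited table. Eef1b2, an exchange factor of eEF1A, stood at 0.22 ± 0.12 in the authors' deposited table.

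The genes that make and trim tRNA did not pass either. Of 20 genes of tRNA end processing and splicing 13 lay below 0 and 3 had an unadjusted p under 0.05. Rpp38 and Rpp14, subunits of ribonuclease P, stood at -0.34 ± 0.13 (SE) and -0.32 ± 0.13, and Elac1, a tRNA 3′ end nuclease, at 0.67 ± 0.34 in the authors' deposited table. Of 22 genes of RNA polymerase III and its factors 14 lay below 0, and 1 had an unadjusted p under 0.05. This was Gtf3c1, the largest subunit of TFIIIC, at 0.64 ± 0.22 (DESeq2, adjusted p = 0.0993) in the authors' deposited table. Among 4 genes of selenocysteine charging and insertion (0 with an unadjusted p under 0.05), Sepsecs stood at 0.30 ± 0.21 in the authors' deposited table. Among 5 genes of proofreading and peptidyl-tRNA hydrolysis (1 under 0.05), Ptrh2 stood at -0.30 ± 0.13 in the authors' deposited table. No gene of these 4 lists was called by the DESeq2 Wald test, beside 1.98% of all genes called in either direction. With lists this small, a count of 0 is near that share and is not a result about these genes.

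Genes of the amino acid response, of which many synthetase genes are targets, were also looked up. Of 24 target genes 1 was lower and 0 were higher, a share of 4.17% that rests on a single gene. Over all genes 1.98% were called in either direction and 1.52% lower. Of the 24, 2 were not given an adjusted value. An unadjusted p under 0.05 was found for 4 of the 24, beside 1602 of the 12069 genes with an adjusted p. Nupr1, a stress-responsive chromatin protein gene, fell by 0.69 ± 0.19 (SE) on the log2 scale, or 1.61 times, in the authors' deposited table (DESeq2, adjusted p = 0.0256). Chac1, which degrades glutathione, and Trib3, a pseudokinase, stood at 1.27 ± 0.56 (SE) and 0.76 ± 0.36 in the authors' deposited table and did not pass. Slc38a2 stood the other way, at -0.50 ± 0.26, and did not pass either. Asns, asparagine synthetase, stood at 0.05 ± 0.18 there. The list's median log2 fold change was 0.05, and 13 of 24 lay above 0.

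None of the 13 sensors and factors of the response was called by the DESeq2 Wald test, beside 1.98% of all genes. Of the 13, 2 had no adjusted p. An unadjusted p under 0.05 was found for 2, Eif2s1 and Atf5, beside 1602 of the 12069 genes with an adjusted p. Atf4 itself stood at 0.12 ± 0.12 (SE) in the authors' deposited table (DESeq2, adjusted p = 0.754). Eif2s1, the eIF2α gene, stood at -0.32 ± 0.12 in the authors' deposited table (DESeq2, adjusted p = 0.193). Atf5 stood the other way, at 2.90 ± 1.26 (SE), but its mean of 6.36 was too low to receive an adjusted p in the authors' deposited table. This concerns transcript levels, while the response acts largely through phosphorylation and translation, which were not measured.

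**Figure D4:**
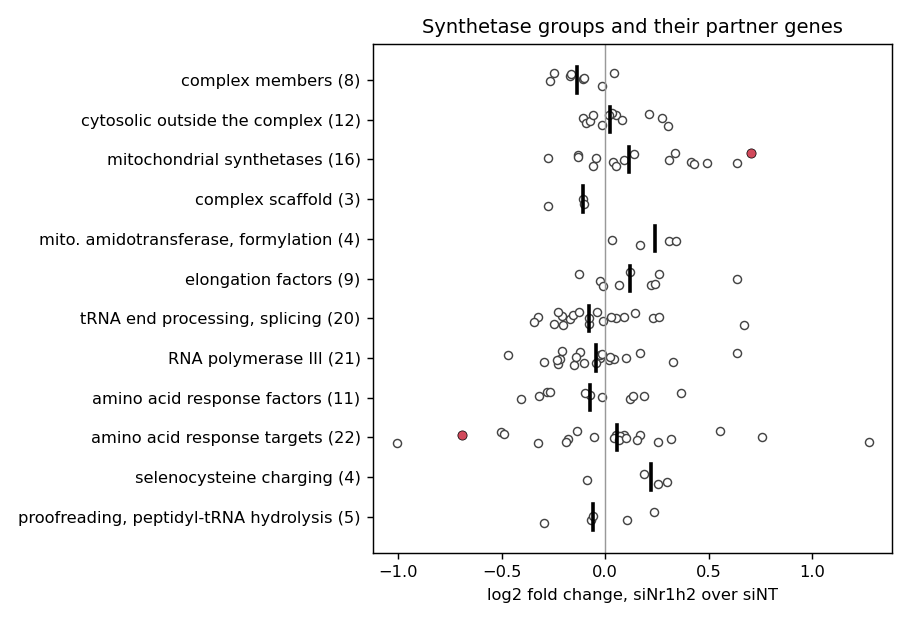
Log2 fold change, siNr1h2 over siNT, of each gene with an adjusted p in 3 groups of synthetases and 9 lists of partner genes (numbers in brackets count genes); black bars mark medians and filled points passed an adjusted p of 0.05. Lars2 and Nupr1 are the filled points, and the complex members and scaffold genes sit mostly left of 0.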

How the data were processed

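Polyadenylated RNA of morulae was made into SMART-Seq v4 and Nextera XT libraries, per the labels' protocols. The submitters' processing notes name Cufflinks 2.2.1, DESeq2, edgeR, HTSeq 0.12.4, STAR, RSEM and build mm9, without roles or order. The authors deposited 1 table with DESeq2 result columns: a mean normalized count per gene (a signal value), a log2 fold change, its standard error, the Wald statistic (a score), and a p-value and adjusted p-value. Tested on the file, the deposited statistic equalled fold change over standard error, the deposited p-value the two-sided normal p, and the adjusted p the Benjamini-Hochberg value over 12069 genes. The 1589 genes with means up to 8.00 had none. No value per sample was given, so depth per sample is unknown and 0 columns were left out.

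Calls are an adjusted p under 0.05 over all genes. Intervals are 95% normal intervals from the deposited standard errors. All members are named, with called genes or the 3 smallest p-values per partner list as examples. Asns, Atf4, Chac1, Trib3, Slc38a2 and Rn45s were named outside this rule after their values were seen. The members and lists were chosen with earlier results of these data known. No set test was run. Transcripts (APPRIS principal, then support level, then length) came from GENCODE M21 by symbol, for all 36 members and 95.7% of tested genes, and promoters from RefSeq. Both are on GRCm38, not mm9. No promoter window was matched for Cars, Hars, Lars, Nars, Rars, Vars, Wars, Hars2 and Pars2. Python 3.11.15, pandas 2.3.3, numpy 2.4.6 and scipy 1.17.1 were used, and the calling step was tested on simulated data. Some items are not reported here.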

Additional observations from a re-analysis of the deposited data

How the results depend on the processing

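The call of Lars2 (log2 fold change 0.70) held at thresholds of 0.01 and 0.1, both centrings, both count filters and after removal of the GC and length trend, which was added with results known, with adjusted p from 0.00353 to 0.0212. It was lost with Holm adjustment (0.70, adjusted p = 0.588) and with a t distribution of 2 degrees of freedom (0.70, adjusted p = 0.948), where 0 members and 0 mitochondrial members were called. With 2 degrees of freedom 0 of all genes passed, so that alternative says nothing of stability. Without Lars2, also added after seeing the data, 0 members and 0 mitochondrial members were called. No cytosolic member was called under any of these alternatives. Over all genes 239 were called, 109 at 0.01, 395 at 0.1, 49 with Holm adjustment, 478 centred on ribosomal protein genes and 147 after removal of the GC and length trend. For the centring and the trend, the cause was not tested.

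Median log2 fold changes ranged from -0.14 to 0.00 for cytosolic and from 0.01 to 0.22 for mitochondrial members, and the median pair difference (cytosolic minus mitochondrial) from -0.12 to -0.08. No paired analysis was possible because the table holds no value per sample, and leaving out each replicate was not run for the same reason.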
